A study of Mus musculus with 43 samples.

Results

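The genes described here serve the peroxisome: 47 genes of its biogenesis and metabolism, found by symbol in the deposited expression table of 54532 genes. The rule picks them by function and uses no expression value, though the list was drawn up with earlier results of these data known. 13 are peroxins, and the other 34 encode enzymes, transporters and membrane proteins. All 47 have a row of their own. Expression was measured by RNA-seq in proximal tubules microdissected from the kidneys of female C57BL/6 mice aged 6 to 8 weeks, with 2 to 5 tubules per library. The mice carried no labelled allele or treatment. The 3 groups are the successive parts of the tubule: S1 with 6 libraries, S2 with 6 and S3 with 7. Each group reached the table as a single TPM value per gene (a relative transcript abundance corrected for transcript length), so every value below is the authors' own, with no replicate error. Titles number the libraries 4 and 5 in S1, 1 to 3 in S2 and 2 to 5 in S3. If these are mouse numbers, which the labels do not state, S1 and S2 had no mouse in common.

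Peroxisomes are small organelles that shorten very long and branched fatty acids, make ether lipids, and oxidise 2-hydroxy acids and certain amino acids, with hydrogen peroxide as a by-product that catalase removes. They have no DNA, so peroxins carry every matrix enzyme in from the cytosol: Pex5 recognises most of them by a signal at the C-terminus, and Pex7 a few by a signal near the N-terminus. The proximal tubule is, with the liver, among the tissues richest in peroxisomes.

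The 3 profiles carried proximal tubule transcripts. In S1, S2 and S3 the endocytic receptor gene Lrp2 stood at 143, 228 and 259 TPM, and its partner Cubn at 46.0, 61.8 and 59.7. The water channel Aqp1 was at 33.0, 382.7 and 561, and the phosphate carrier Slc34a1 at 10241, 2227 and 17.0, so that marker was low in S3. Genes of other cells were not spread evenly. Summed over 10 markers each, in the same order, the endothelial genes came to 74.9, 703 and 277 TPM, the immune genes to 58.3, 317 and 98.7, and the stromal genes to 2.9, 23.5 and 2.6. All 30 of these were highest in S2 except Csf1r, which was highest in S3. Of the 30, Lum was listed at 0 in S1 and S3. The 5 podocyte markers summed to 2.4, 16.7 and 4.8 TPM and the 6 loop and distal markers to 2.2, 24.8 and 33.9. The part of these cells in the differences below was not tested. In samples of whole tubules, fewer cells of a type and less RNA per cell cannot be told apart.

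As a group the peroxisome genes took more of the transcriptome further along the tubule. Their summed share of all TPM was 0.812%, 1.28% and 1.5% in the S1, S2 and S3 profiles. The peroxins had almost no part in this, with 551, 589 and 663 TPM. The 5 members with the greatest gain, chosen here after their values were seen, were Nudt19, Hao2, Pecr, Prdx5 and Ehhadh. Together they gave 6678 of the 6877 TPM by which S3 exceeded S1. The remaining 42 members summed to 5124, 5346 and 5324 TPM, a nearly level total. The level total was made of genes that ran in opposite directions.

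**Figure D1:**
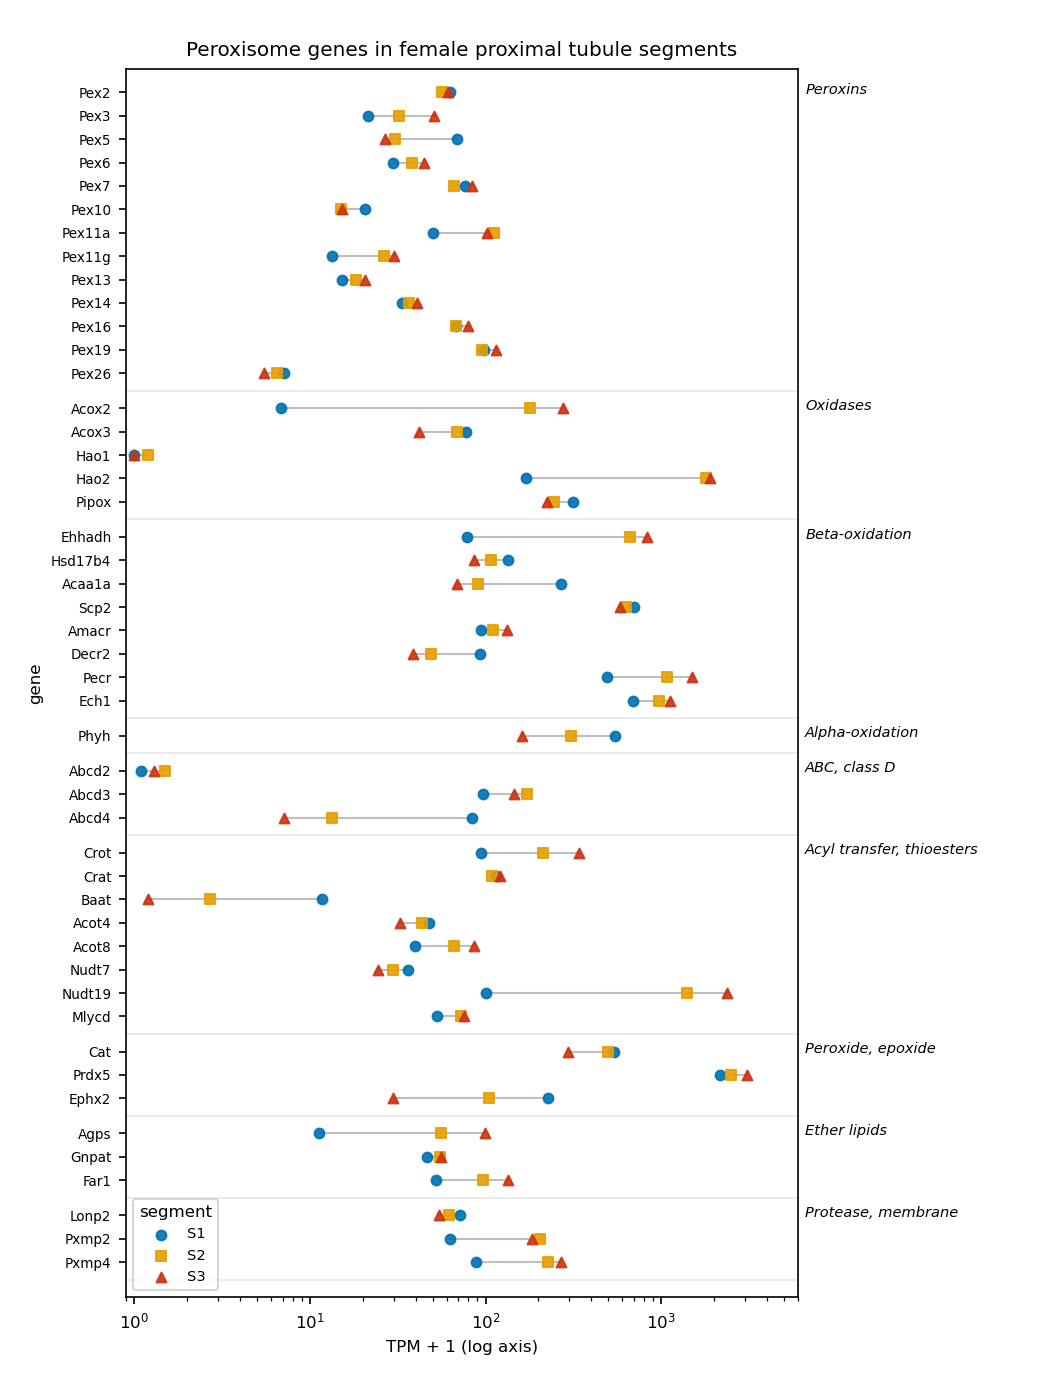
TPM + 1 of the 47 peroxisome genes on a log axis, grouped by role. Each gene has 3 points, the authors' single values for S1 (circle), S2 (square) and S3 (triangle), joined by a grey line. No peroxin spans as wide a range as Acox2 (5.9 to 275.7 TPM), Nudt19 (99.2 to 2364 TPM), Abcd4 (82.6 to 6.1 TPM) or Hao2 (168 to 1890 TPM), the widest of the 47 on this scale.

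Differences are given on the log2(TPM + 1) scale, and a gene counts as different when this reaches 1, which is 2-fold. With 1 value per segment there is no test, and the size of a difference is all that is described. A TPM of 1 or more in some segment was required, which 45 of the 47 genes met. Hao1, the glycolate oxidase known from liver, was at 0, 0.2 and 0 TPM, and Abcd2, a transporter of very long-chain acyl-CoA, at 0.1, 0.5 and 0.3. Between the highest and the lowest segment 21 of the 45 differed 2-fold, beside 33.3% of all 16053 genes compared and 30.6% of the 7614 that reach a TPM of 10, as all but Pex26 and the 2 members under the filter do. All 21 differed between S1 and S3. In that contrast 7 were higher in S1 (background 10.5%, or 12.8% of genes reaching a TPM of 10) and 14 higher in S3 (13.1% and 14.7%). For S1 against S2 the numbers were 5 higher in S1 (6.62% and 8.71%) and 10 higher in S2 (17.7% and 13.9%). With median-of-ratios scaling that split was 7 and 7. S2 and S3 were close: 2 members were higher in S2 (8.74% and 6.49%) and none higher in S3 (2.24% and 1.88%).

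The order of the segments was regular for most members. In 21 of 45 the value went up from S1 through S2 to S3, beside 20.9% of all genes and 28% of those reaching a TPM of 10, and in 16 it went down in the same order, beside 22.9% and 28.7%. The lowest value was in S2 in 5, beside 15.3% and 24.7%. Just 3 members (Pex11a, Abcd3 and Pxmp2) had their highest value in S2, where 36.4% of all genes had theirs. With quantile normalization it was 7 members and 23.7% of all genes, and with median-of-ratios scaling 1 member and 28.7%. Among genes reaching a TPM of 10 the share was 17.1% in the deposited values. The S2 profile also held the most endothelial, immune and stromal RNA, as given above. For the 21 members that differed between S1 and S3, S2 lay nearer to S3 in 18, and in 79.2% of all such genes. Phyh, Ephx2 and Pex3 were the exceptions.

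The peroxins were expressed throughout, and 9 of 13 stayed within 2-fold between S1 and S3, as did 12264 of all 16053 genes compared. Triplets of values, here and below, stand in the order S1, S2, S3. Among the RING ubiquitin ligases that recycle the import receptors, Pex2 was at 61.4, 55.6 and 59.8 TPM, and Pex10 at 19.5, 14.1 and 14.3. The docking proteins at the membrane were within 2-fold as well, Pex13 at 14.2, 17.4 and 19.5 TPM and Pex14 at 32.4, 35.9 and 39.9. Pex6, an ATPase that pulls the receptor back out, was at 28.7, 37.1 and 43.4 TPM, and its anchor Pex26 at 6.1, 5.5 and 4.5. The Pex26 level was the lowest of the 13 in each segment.

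The receptors for import parted company. Pex5 was at 67.7, 29.6 and 25.9 TPM, which makes it 2.61-fold higher in S1 than in S3 and the only peroxin that was 2-fold higher in S1. The Pex7 values were 75.2, 65.0 and 83.0 TPM. The TPM ratio of Pex5 to Pex7 therefore went from 0.90 through 0.455 to 0.312. Pex5 lies on chromosome 6 from 124396816 to 124415944 (GRCm38.p6) and overlaps no other protein-coding gene there.

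Of the 3 peroxins that insert membrane proteins, Pex3 had a gradient while its partners did not. Pex3, the membrane docking site, was at 20.4, 31.0 and 50.1 TPM, 2.46-fold higher in S3 than in S1. Pex19, the soluble chaperone it receives, was at 97.5, 94.1 and 113 TPM, and Pex16 at 66.7, 66.8 and 78.6. The Pex11 genes, whose proteins elongate and divide peroxisomes, were both lowest in S1. Pex11a was at 49.2, 111.2 and 101.6 TPM and Pex11g at 12.3, 25.3 and 29.3, or 2.07-fold and 2.38-fold higher in S3 than in S1. The Pex11a difference between S1 and S3 is at the edge of the 2-fold threshold: 1.03 on the log2 scale, and 0.98 with quantile normalization. Pex3, Pex11a and Pex11g each overlap another protein-coding gene, and the kit marks no strand. The partners were low: Adat2 reached 1.8 TPM, Wdr93 2.4 and Tex45 0.1. Pex13, which was within 2-fold, shares 7293 bases with Pus10, at 4.9, 4.9 and 4.5 TPM.

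The oxidases, which pass electrons to oxygen in the first step, contained the largest difference of all 47 genes on the log2(TPM + 1) scale. Acox2, the acyl-CoA oxidase for bile acid precursors, was at 5.9, 178 and 275.7 TPM, or 46.7-fold higher in S3 than in S1. It lies on chromosome 14 from 8225511 to 8259019 (GRCm38.p6). The related Acox3, which acts on branched chains, was at 76.5, 68.1 and 40.7 TPM. Acox3 was thus the more abundant of the pair in S1 and Acox2 in S2 and S3, with a TPM ratio of Acox2 to Acox3 of 0.0771, 2.62 and 6.77.

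Hao2, a 2-hydroxyacid oxidase typical of kidney (chromosome 3, 98874519 to 98895376), was at 168, 1785 and 1890 TPM, so nearly all of its difference lay between S1 and S2. Pipox, which oxidises sarcosine and pipecolate, was nearly level at 312, 243 and 223 TPM. In S1 Pipox had the higher TPM of the pair, and in S3 Hao2 exceeded it 8.47-fold.

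The enzymes of beta-oxidation did not move as 1 block. The middle steps can be run by either of a pair of bifunctional proteins. Ehhadh, the L-specific form (chromosome 16, 21761285 to 21787834), was at 77.7, 666 and 831 TPM, 10.7-fold higher in S3 than in S1. Hsd17b4, the D-specific form used for branched chains, was at 134, 107 and 84.6. The TPM ratio of Ehhadh to Hsd17b4 was 0.581, 6.24 and 9.82.

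The thiolase that ends the cycle ran the other way. Acaa1a (chromosome 9, 119341028 to 119350296) was at 268, 89.9 and 68.0 TPM, or 3.94-fold higher in S1 than in S3. Its close paralogue Acaa1b, taken up here because of that likeness, was at 72.5, 453 and 112. The 2 sequences are so alike that the split of reads between them is uncertain. Their sum, which does not depend on the split, was 340.5, 543 and 180 TPM, highest in S2. Scp2, whose gene encodes both a thiolase for branched chains and a sterol carrier protein, was level at 696, 631 and 580 TPM. A gene-level value cannot separate those products.

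The auxiliary enzymes for unsaturated and branched substrates were also divided. Pecr, a trans-2-enoyl-CoA reductase, was at 489.5, 1084 and 1503 TPM, 3.07-fold higher in S3 than in S1. Decr2, the peroxisomal dienoyl-CoA reductase, was at 91.7, 47.7 and 37.9, or 2.42-fold higher in S1 than in S3. Ech1, a dienoyl-CoA isomerase of peroxisomes and mitochondria, was at 690, 969 and 1124 TPM, and Amacr, the racemase for branched chains, at 93.7, 109.9 and 131. Both were within 2-fold. Phyh, which starts the alpha-oxidation of phytanic acid (chromosome 2, 4918996 to 4938743), was at 543, 306 and 160 TPM, 3.40-fold higher in S1 than in S3 with S2 midway.

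**Figure D2:**
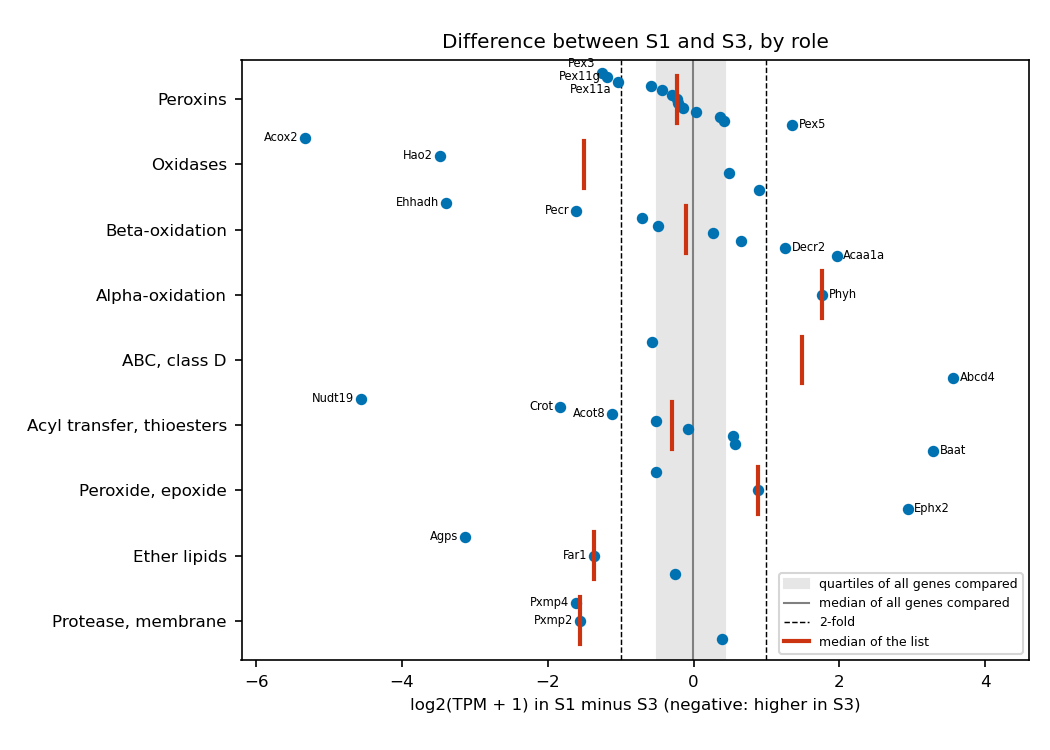
Difference between S1 and S3 in log2(TPM + 1) for the 45 measured peroxisome genes, by role. Each blue point is a gene, red bars are list medians, dashed lines mark 2-fold, and grey shows the median and quartiles of all 16053 genes. The beta-oxidation enzymes lie on both sides of a median of -0.11, from Ehhadh at -3.40 to Acaa1a at 1.96, and the peroxins from -1.26 to 1.35. The Acaa1a value rests on an uncertain split of reads with Acaa1b.

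Peroxins and the oxidative enzymes had like medians and unlike spread. For S1 minus S3 the median difference was -0.23 over the 13 peroxins and -0.11 over the 12 measured oxidases and beta-oxidation enzymes, beside -0.01 over all genes compared. The range was -1.26 to 1.35 for the peroxins and -5.33 to 1.96 for the enzymes. The upper end for the enzymes is Acaa1a, whose split of reads with Acaa1b is uncertain, and the next is Decr2 at 1.25. For S1 minus S2 the medians were 0.00 and -0.04 (all genes -0.18), and for S2 minus S3 they were -0.16 and 0.02 (all genes 0.12). Over the genes reaching a TPM of 10 the median was 0.05 for S1 minus S3, 0.07 for S1 minus S2 and -0.03 for S2 minus S3. Median-of-ratios scaling turned the sign of both lists' S1 minus S2 medians, to 0.20 and 0.16. It also turned the enzymes' S2 minus S3 median, to -0.15. By count, 4 of 13 peroxins and 6 of 12 enzymes differed 2-fold between S1 and S3, beside 23.6% of all genes compared. Of the 7614 genes reaching a TPM of 10, 2090 did. With 1 value per segment the difference between the lists was not tested.

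Import of the substrates is the task of the class D ABC transporters. Abcd3, which takes in branched acyl-CoA and bile acid precursors, was at 96.3, 171 and 144 TPM. Abcd4 (chromosome 12, 84601869 to 84617485) was at 82.6, 12.4 and 6.1 TPM, or 13.5-fold higher in S1 than in S3. On the log2(TPM + 1) scale this was the largest difference towards S1. With a pseudocount of 0.1 that of Baat was larger, at 5.17 against 3.74 for Abcd4. Abcd4 belongs to this family by sequence, but its protein is known for exporting vitamin B12 from lysosomes.

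The enzymes that handle acyl-CoA once it has been shortened had members at both ends of the range. Nudt19, a hydrolase of coenzyme A and its esters known from kidney peroxisomes (chromosome 7, 35547185 to 35558643), was at 99.2, 1393 and 2364 TPM, or 23.8-fold higher in S3 than in S1. By TPM it ranked 49 among all genes compared in S3 and 1294 in S1. Nudt7, a related enzyme better known from liver, was at 35.4, 28.7 and 23.5 TPM. Nudt19 thus exceeded Nudt7 in all 3 segments, by 2.80-fold, 48.5-fold and 101-fold.

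Shortened chains leave the organelle as carnitine esters or free acids. Crot, the octanoyltransferase, was at 93.8, 212 and 338 TPM, 3.60-fold higher in S3 than in S1, while Crat, the acetyltransferase, was level at 114, 107.8 and 119. Among the thioesterases, Acot8 was 2.20-fold higher in S3 than in S1 (38.5, 64.9 and 84.7 TPM), and Acot4, which has close relatives beside it in the genome, was at 46.6, 42.5 and 31.6. The Acot8 gene shares 15106 bases with Zswim3 (1.4 to 2.4 TPM) and 1043 bases with Snx21 (11.2 to 19.5 TPM). Crat shares 54 bases with Dolpp1 (13.4 to 20.1 TPM). Baat, which joins bile acids to taurine or glycine, was at 10.7, 1.7 and 0.2 TPM. Its low S2 and S3 values make the fold imprecise. Mlycd, malonyl-CoA decarboxylase, was within 2-fold at 52.0, 71.8 and 74.9.

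**Figure D3:**
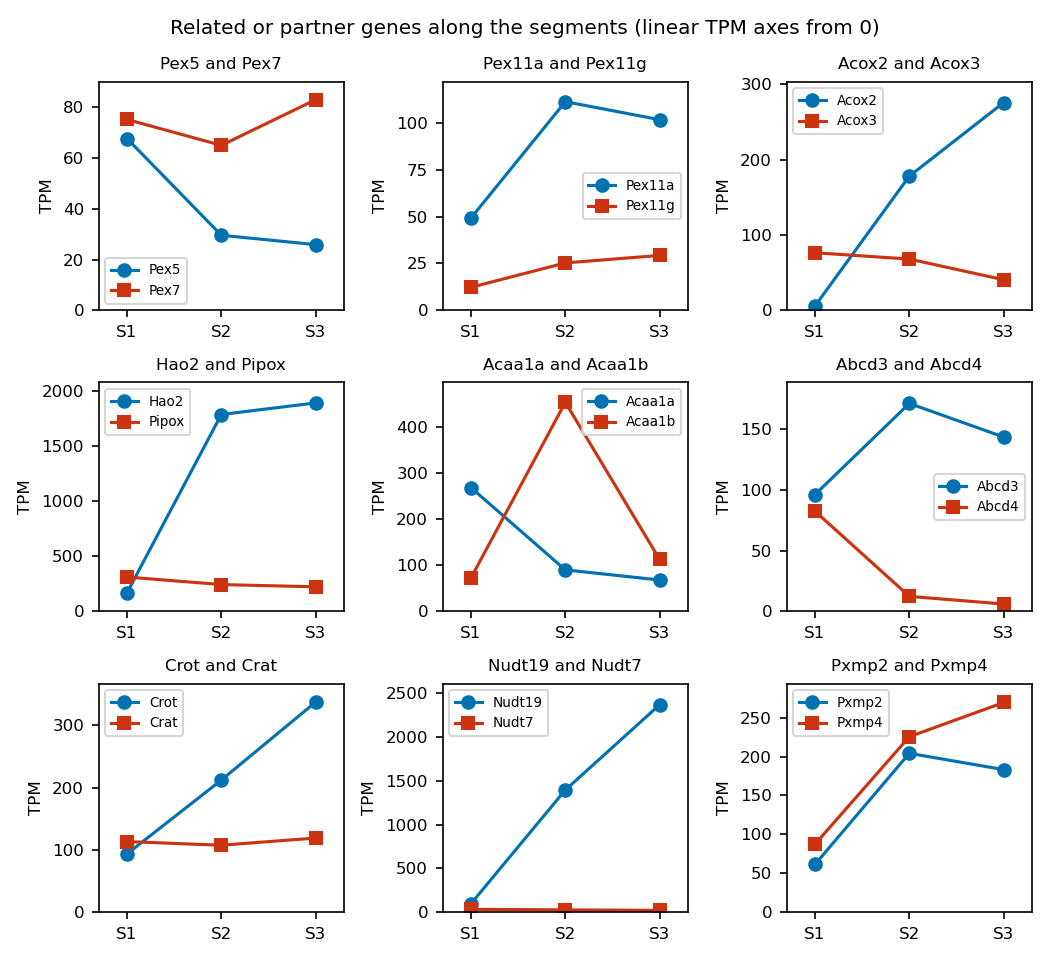
TPM of 9 pairs of genes along the S1, S2 and S3 segments, 1 panel each, on linear axes from 0 that differ between panels. The pairs share a family or a role, and Hao2 and Pipox are both oxidases but with unlike substrates. Points are the authors' single values. Among the pairs drawn, the order turns between S1 and S2 for Acox2 and Acox3, Hao2 and Pipox, Crot and Crat, and, with an uncertain read split, Acaa1a and Acaa1b.

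Of the peroxide-handling genes, Prdx5 and Cat were abundant in every segment. Prdx5, a peroxiredoxin of peroxisomes, mitochondria and cytosol, had the highest TPM of the 47 in each segment, with 2157, 2484 and 3081. Its gene shares 409 bases with Trmt112, at 30.2, 49.2 and 61.8 TPM. Catalase, Cat, was at 540, 495 and 292 TPM, 1.85-fold higher in S1 than in S3 and so just short of the threshold, as was Acox3 at 1.88-fold. Hao2, a producer of peroxide, and catalase were thus ordered oppositely along the tubule. Ephx2, the soluble epoxide hydrolase of cytosol and peroxisomes (chromosome 14, 66084372 to 66124522), was at 225, 104 and 28.6 TPM. It was 7.88-fold higher in S1 than in S3 and 3.63-fold higher in S2 than in S3. On the log2(TPM + 1) scale only Ephx2 and Baat differed 2-fold between S2 and S3. Abcd4, 2.03-fold higher in S2 as a plain TPM ratio, was at 0.92 on that scale. The Baat difference between S2 and S3 went to 0.80 on the log2 scale with quantile normalization, short of the threshold.

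The 3 genes of ether lipid synthesis shared a direction but not a size. Gnpat and Agps encode successive enzymes of the pathway inside the peroxisome, and Far1 makes the fatty alcohol they need. Agps (chromosome 2, 75832177 to 75931350) was at 10.3, 54.5 and 98.1 TPM, 9.52-fold higher in S3 than in S1, and Far1 at 51.1, 96.0 and 134, 2.62-fold higher. Gnpat was level at 45.6, 54.1 and 54.8. The TPM ratio of Gnpat to Agps was 4.43, 0.993 and 0.559.

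The membrane proteins Pxmp2, a channel for small solutes, and Pxmp4 were both lowest in S1, but from S2 to S3 the first was lower and the second higher. Pxmp2 was at 61.6, 204 and 183 TPM and Pxmp4 at 87.5, 225 and 269, or 2.97-fold and 3.08-fold higher in S3 than in S1. Lonp2, the matrix protease that clears damaged enzymes, was within 2-fold at 70.2, 60.8 and 53.2.

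Another 35 peroxisome genes, listed apart from the 47, also held differences in both directions. Of the 30 measured, 4 were 2-fold higher in S1 than in S3 and 5 higher in S3, near the shares of all genes (10.5% and 13.1%), with a median S1 minus S3 of -0.16. Of these 30, 12 were highest in S2 (40%), near the 36.4% of all genes compared. Another 7 went up from S1 through S2 to S3 (23.3%), near the 20.9% of all genes. Over genes reaching a TPM of 10 those shares were 17.1% and 28%. Of the 45 members the counts were 3 and 21. Among the genes of this other list that reach a TPM of 10, the 5 lowest in S1 relative to S3 were Mpv17l, Eci3, Slc27a2, Slc25a17 and Eci2. Mpv17l, a peroxisomal membrane protein, was at 33.2, 1485 and 1399 TPM. Slc27a2, the very long-chain acyl-CoA synthetase, was at 611, 4180 and 5476 TPM. Slc25a17, the carrier that brings coenzyme A and other cofactors into the organelle, was at 89.9, 199 and 265. Eci3 and Eci2, isomerases for unsaturated chains, were at 51.7, 625 and 710 and at 73.4, 154 and 169. In the other direction stood Idh1, an NADP-linked isocitrate dehydrogenase of cytosol and peroxisomes, at 1014, 217.5 and 23.1 TPM. With it came Acnat2 (17.4, 91.5 and 3.0), Gstk1 (106.5, 119.9 and 37.8), Acad11 (117, 81.3 and 45.7) and Mff (144, 73.7 and 78.3). Mff was within 2-fold.

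Of 4 regulators of peroxisomal genes, 3 were highest in S1, where Acox2, Nudt19 and Ehhadh were lowest. Ppara, the fatty acid-sensing nuclear receptor for which Ehhadh and Pex11a are classical targets, was at 96.7, 37.5 and 21.8 TPM. Its partner Rxra was at 41.0, 15.4 and 9.0, and the coactivator Ppargc1a at 53.7, 14.2 and 3.7. Hnf4a, a nuclear receptor of tubule and liver, was at 112, 117 and 136. A transcript level is not a measure of receptor activity, and no relation across 3 values was tested.

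**Figure D4:**
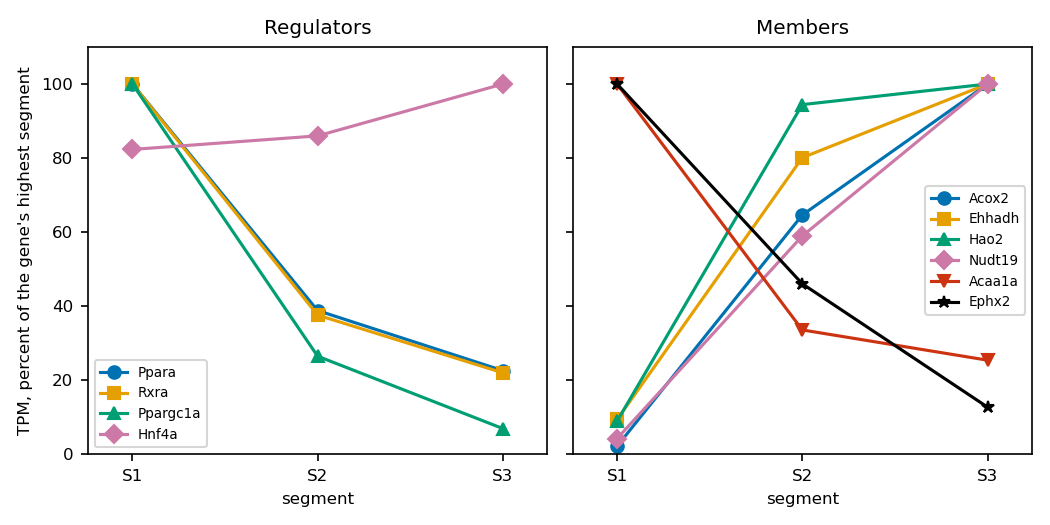
TPM of 4 regulators (left) and 6 peroxisome genes (right) in S1, S2 and S3, each as a percentage of the gene's highest segment, on a linear axis from 0. Ppara, Rxra and Ppargc1a are highest in S1, as are Ephx2 and, with an uncertain split of reads with Acaa1b, Acaa1a. Acox2, Ehhadh, Hao2 and Nudt19 are highest in S3.

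Promoter windows were at hand for 37 of the 47 genes, taken from RefSeq on GRCm38.p6 and running from 250 bases before each start to 50 after it. The DR1 motif, to which PPAR and RXR bind together, is AGGTCA given again in the same direction after a spacer of a single base. It was in none of the 37 on either strand, and in 0.0481% of all 27025 genes with a window. That says only that these letters are not in these short windows. AGGTCA alone, which is contained in DR1, was in the windows of 5 (Acot4, Cat, Pex11g, Phyh and Scp2), or 13.5%, beside 18.1% of all genes and 15.4% of the 10354 compared genes with a window. The members that were higher in S3 had starts of unlike base composition, and 4 that show the extremes are printed, chosen after their values were seen. CG dinucleotides, a mark of broadly used promoters, were counted in the 250 bases before each start, a count added after the expression values had been seen. Over genes compared, the median was 11 where segments differed 2-fold (2948 genes) and 17 where they did not (7406). Among the members those medians were 12 (17 genes) and 12.5 (19 genes), so no such gap appeared. In the windows shown Acox2 had 3 and Hao2 had 1, while Crot had 25 and Agps 22. The 250 bases before the start follow, 5′ to 3′ on the gene's strand, with each CG in capitals. Acox2 lies at chr14:8259020-8259269 and Hao2 at chr3:98893231-98893480, both on the minus strand. Crot lies at chr5:8997147-8997396 on the minus strand and Agps at chr2:75831927-75832176 on the plus strand.
Acox2: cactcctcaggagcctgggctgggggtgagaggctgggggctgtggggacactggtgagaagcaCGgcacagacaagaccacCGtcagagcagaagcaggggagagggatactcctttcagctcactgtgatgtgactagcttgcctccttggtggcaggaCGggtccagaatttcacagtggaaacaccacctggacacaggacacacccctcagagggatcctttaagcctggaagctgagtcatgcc
Hao2: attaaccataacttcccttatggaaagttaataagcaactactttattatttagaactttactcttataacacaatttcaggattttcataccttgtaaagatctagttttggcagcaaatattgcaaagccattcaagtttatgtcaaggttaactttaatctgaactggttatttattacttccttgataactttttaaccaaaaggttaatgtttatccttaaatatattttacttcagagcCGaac
Crot: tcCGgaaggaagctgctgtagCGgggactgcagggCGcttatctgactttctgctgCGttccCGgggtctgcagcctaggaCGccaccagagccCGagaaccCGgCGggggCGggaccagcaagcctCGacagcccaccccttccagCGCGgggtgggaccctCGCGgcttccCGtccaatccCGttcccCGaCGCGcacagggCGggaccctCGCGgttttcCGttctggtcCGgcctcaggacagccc
Agps: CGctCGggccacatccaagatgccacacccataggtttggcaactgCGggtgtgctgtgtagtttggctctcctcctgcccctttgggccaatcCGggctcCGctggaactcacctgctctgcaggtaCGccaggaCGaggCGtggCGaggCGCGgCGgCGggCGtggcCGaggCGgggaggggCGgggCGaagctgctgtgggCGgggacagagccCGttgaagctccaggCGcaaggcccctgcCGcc
The Acox2 start shown is the outer of 2 in the table, and the Hao2 start lies inside the annotated gene. GC content was 58.8% for Acox2, 28.4% for Hao2, 69.6% for Crot and 70.0% for Agps.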

How the data were processed

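Per the labels' protocols, SMARTer V4 cDNA was amplified by 10 to 12 PCR cycles, made into Nextera XT libraries and read from both ends for 50 bases. The protocols name no molecular identifiers, so PCR copies may remain in the values. Per the submitters' processing notes the build was mm10, and the tools named, with no role given, were RSEM and STAR, also MACS2, SAMtools, Picard, Bowtie2 and cutadapt. The authors deposited TPM with 1 decimal. The 3 columns used sum to 999907, 999988 and 999911. The way libraries were combined into 1 column was not given in the sources used here. TPM keeps no depth, so no counting interval was computed. The other 5 value columns could not be matched to RNA-seq labels and stayed out. The 24 ATAC-seq libraries were not analysed here.

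The 16053 genes reaching a TPM of 1 in some segment were compared as log2(TPM + 1), which understates folds of low genes. Folds are plain TPM ratios, left out where either value is under 1. The members and lists were chosen with earlier results of these data known. Members 2-fold different and reaching a TPM of 10 are described in full, with paralogue pairs and the most abundant of the rest. A planned search for import signals in proteins was not run, and a limma fit, foreseen if values per library were at hand, was not possible. Alternatives of pseudocount, filter, scaling and threshold were tried. Symbols came from the table, and all 47 gene IDs matched the reference names. Calculations used Python 3.11.15, pandas 2.3.3 and numpy 2.4.6, and the code was tested on simulated data.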

Additional observations from a re-analysis of the deposited data

How the results depend on the processing

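No paired analysis was possible because the table holds 1 value per segment and no values for single libraries, and leaving out libraries could not be run for the same reason. The alternatives were a pseudocount of 0.1, a filter of TPM 5, no filter, quantile normalization, median-of-ratios scaling, TPM rescaled without dominant genes (Kap, Gpx3 and those encoded in mitochondria), and a 1.5-fold threshold. For S1 against S2 and S1 against S3 the member counts stayed within 1.5 times under each, but median-of-ratios scaling changed the S1 against S2 split from 5 higher in S1 and 10 in S2 to 7 and 7. Over all genes the share of called genes that were higher in S1 than in S2 went from 27.2% to 37.4% under that scaling and 43.4% with quantile normalization, and the genes lower in S1 went from 2840 to 4738 with a pseudocount of 0.1. Median-of-ratios scaling moved the median of all genes for S1 minus S2 by 0.16, and quantile normalization by 0.20. For S2 minus S3 these shifts were -0.13 and -0.15. Between S2 and S3 the 2 members higher in S2 became 4 without the dominant genes and 6 at the 1.5-fold threshold. Those higher in S3 went from 0 to 1 under median-of-ratios scaling and 5 at 1.5-fold. By scalings added after the data were seen, members highest in S2 went from 3 to 7 with quantile normalization, 1 with median-of-ratios and 5 without the dominant genes. Members lowest in S2 went from 5 to 9 with median-of-ratios and 2 without the dominant genes. The cause was not tested. Over the 21 members that differed 2-fold, 378 differences were recomputed under the settings other than the 1.5-fold threshold. None changed sign past 2-fold, 6 fell short of 2-fold and 10 newly reached it. The 378 include the filter of TPM 5 and no filter, which only keep or drop genes. Under those settings a gene's difference could not change.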
